A study of Mus musculus with 4 samples.

Results

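Livers of female CD-1 mice in which the homeobox factor Cux2 had been targeted with small interfering RNA (siRNA) were compared, 5 days after treatment, with livers of females given a siRNA of no specific target. The comparison rests on the 2 arrays labelled as day 5, out of 4 arrays in the series; the other 2 carry day 8. Every mouse was an 8 week old female of the outbred CD-1 stock, and every mouse of both groups had received a siRNA. The question, by the title of the series, was how a loss of Cux2 changes expression in female liver. On replicate 1 the treated pool held RNA of 3 mice in the red dye (Alexa 647) and the control pool was in the green dye (Alexa 555). On replicate 2 the treated pool held 2 mice in green and the control pool was in red. The 13 control mice made up 2 pools of 6 or 7 by the series text, whereas each array's description gives 6. Which control pool lay on which array, when the controls were killed and how the siRNA was given are not stated in the labels, and the same control pools serve day 8. Each array thus sets 1 pool against 1 pool, the p-values measure the spread between arrays, which may be partly technical, and dye orientation and mouse pool cannot be told apart. Each ratio below is the log2 of the Cux2 siRNA pool over the non-specific siRNA pool, so a lower level in treated mice and a higher level in control mice give the same value.

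Cux2 is a transcription factor with a cut-type homeodomain that binds DNA near genes also bound by HNF6 (Onecut1). In mouse liver it is made mainly in females, where the near-continuous pattern of growth hormone in plasma keeps it on, and it is known for repressing male-biased genes and activating some female-biased ones. The pulsatile pattern of males acts through STAT5b, and the repressor BCL6 is among its male-biased counterparts.

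Median spot signals on the day 5 arrays lay between 381.5 and 471.5 over local backgrounds of 306 to 342. Of 41174 probes, 71.1% to 74.6% were well above background in a channel, between 99 and 116 spots were marked as outliers and 0 were saturated. The fit covered 25091 genes, 14064 of them with a symbol, with 2 arrays a day and 1 spread shared by both days; this small number of arrays sets the precision of every standard error (SE) given here. All 13 hepatocyte markers measured were well above background. Alb, encoding serum albumin, read 420190 and 242210 intensity units in the treated pools and 238190 and 412390 in the control pools.

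Cux2 had log2 ratios of -1.91 and -1.70 on replicates 1 and 2. Its signal was 279 against 1053 on the first array and 234 against 761 on the second, so both treated pools lay below both control pools. The mean fell by 1.81 (SE 0.09, n = 2, adjusted p = 0.00299 in the limma fit), leaving 28.6% of the control level. Under median centring its value was -1.82 and did not pass (adjusted p = 0.129). Cux1, the closest relative of Cux2, did not pass (0.11 and 0.21).

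In all, 4216 of the 25091 genes passed at an adjusted p under 0.05 (16.8%); 1851 rose (7.38%) and 2365 fell (9.43%). These 2 shares are the ones to set beside the counts of each gene list below. Of the 25091 genes 11027 had no symbol, 1494 of which passed, and the gene lists hold none of them. The rises were mostly small. Of them 1119 were under 1.5-fold and 170 reached 2-fold, whereas 1076 of the falls were under 1.5-fold and 491 reached 2-fold. Of all genes 130 (0.518%) were at least 2-fold higher on both arrays and 427 (1.70%) at least 2-fold lower on both. At 8-fold on both arrays these counts were 2 and 35. The 2 genes were Nat8 and Nat8f5, and the 35 included genes induced by interferon (Gbp2 and Rsad2 among them), acute phase genes (Orm2, Mt2) and exocrine pancreas genes (Pnlip, Cpa1). Leaving out replicate 1 cut the genes that passed to 915, leaving out replicate 2 to 246, and median centring to 5 (1 rose and 4 fell), among them Nat8f5, Ifi44 and Oasl2. None of 308 passed genes looked at by name changed direction under any alternative run. Leaving out 1 day 5 array could not reverse any of them, as every passed gene had the same sign on both. Such a run keeps 1 day 5 array and takes its spread from the 2 day 8 arrays alone. Its counts of calls, here and in the lists below, hold no day 5 spread.

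**Figure D1:**
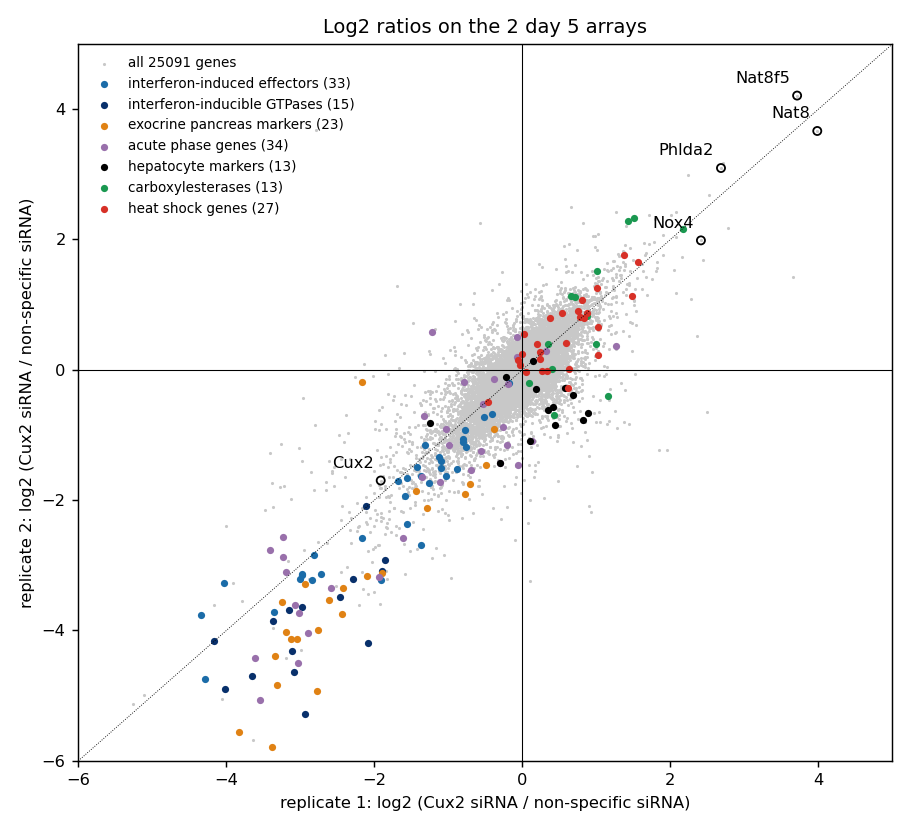
Log2 ratio of each gene on replicate 1 (horizontal axis) and replicate 2 (vertical axis) of day 5; grey points are all 25091 genes, coloured points are members of gene lists and the dotted line marks equal values. Interferon-inducible GTPases and most pancreas markers lie at the lower left, Nat8 and Nat8f5 above 3 on both axes, and hepatocyte markers mostly to the right of 0 and below it; circles mark 5 named genes.

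Of female-biased genes, a class for which Cux2 is known, 7 of 32 fell (21.9%, beside 9.43% of all genes) and 2 rose (6.25%, beside 7.38%), with a median of -0.22 against 0.00 over all genes. Abcd2, a peroxisomal importer of fatty acyl-CoA, had -1.22 and -1.05 and fell by 1.14 (SE 0.20, adjusted p = 0.0261); with the mean of its probes it was -0.74 and did not pass (adjusted p = 0.0671). Rtn4, a shaper of the endoplasmic reticulum (-1.06 and -0.78), the transcription regulators Trim24 (-1.14 and -0.55) and Tox (-0.73 and -0.54), and the female-specific steroid hydroxylase Cyp2b9 (-0.68 and -0.71) fell as well. Of the 32, 20 were lower on both arrays and 5 higher on both. Adh7 (0.80 and 1.5) and the neurotrophin receptor Ntrk2 (0.98 and 1.89) rose. The female-specific hydroxylases Cyp3a41a (-0.19 and -0.31) and Cyp2b13 (-0.32 and -0.33) and the sulfotransferase Sult3a1 (-0.28 and -0.29) did not pass. With 1 day 5 array left out, only the day 8 pair gives the spread. Calls lost in such a run do not show what these counts rested on.

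Of male-biased genes, 3 of 29 rose and 1 fell (median 0.07), shares of 10.3% and 3.45% beside 7.38% and 9.43% of all genes. Nox4, a hydrogen peroxide-producing oxidase, had 2.41 and 1.99 and rose by 2.20 (SE 0.13, adjusted p = 0.00447, 4.59-fold). The glucuronosyltransferase Ugt2b1 (0.63 and 0.55) and the erythroid haem enzyme Alas2 (0.59 and 0.28) rose too, and Cyp2u1 fell (-0.77 and -0.71). The repressor Bcl6 was higher on both arrays (1.01 and 1.32; adjusted p = 0.219) without passing, as were the arachidonate hydroxylases Cyp4a12a (1.00 and 0.23) and Cyp4a12b (0.44 and 1.00), Keg1 (1.44 and 0.52), Selenbp2 (0.26 and 1.57) and the epidermal growth factor receptor Egfr (0.81 and 0.46). For Cyp4a12a, Selenbp2 and Keg1 one array was near or above 1 and the other at about 0.5 or less. The pheromone carrier Mup3 (-0.08 and -1.47), the steroid hydroxylases Cyp2d9 (-0.10 and -0.04) and Cyp7b1 (-0.62 and -0.56), and Slco1a1 (0.03 and 0.05) did not pass. Of the 29, 1 rose and 0 fell without replicate 1, and 1 rose and 0 fell without replicate 2.

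Genes of growth hormone signalling and cytokine feedback leaned to lower values. Of 18, 4 fell and 2 rose, beside 9.43% and 7.38% of all genes, with a median of -0.39. The feedback inhibitor Socs2 had -1.36 and -1.27 and fell by 1.31 (SE 0.07, adjusted p = 0.00361); Socs3 (-1.0 and -1.33), the kinase Jak2 (-0.49 and -0.72) and the shared receptor chain Il6st (-0.44 and -0.50) fell as well. Cish (-0.81 and -1.48), Socs1 (-1.06 and -2.84) and Stat5b (-0.61 and -0.58) were lower on both arrays without passing. The prolactin receptor Prlr (0.45 and 0.67) and Onecut1, which encodes HNF6 (0.57 and 0.35), rose. The growth hormone receptor Ghr (0.24 and 0.17) and its target Igf1 (0.00 and -0.65) did not pass; 0 rose and 1 fell without replicate 1, and 0 rose and 2 fell without replicate 2. Among 29 liver transcription factors 5 rose and 6 fell (2 rose and 2 fell without replicate 1, and 0 rose and 1 fell without replicate 2). Esr1, the oestrogen receptor, rose by 0.89 (0.89 and 0.89; SE 0.07, adjusted p = 0.00664), as did Prox1 (0.39 and 0.57), while Klf9 (-0.97 and -0.76), Atf5 (-0.55 and -0.86) and Nr5a2, a regulator of bile acid synthesis (-0.32 and -0.48), fell. Hnf4a (0.25 and 0.57), Foxa1 (0.53 and 0.38) and Cebpa (-0.25 and -0.40) did not pass. Beside the counts of these factors, 7.38% of all genes rose and 9.43% fell.

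Among the rises the Nat8 family stood at the top. Nat8 and Nat8f5, of a family whose founding member acetylates cysteine conjugates on the way to mercapturic acids, had 3.98 and 3.66 and 3.71 and 4.21. Nat8 stood at 11542 and 9150.3 intensity units in the treated pools against 729 and 721 in the control pools. Of the 6 family members measured, the other 4, Nat8f1 (-0.13 and -0.47), Nat8f2 (0.07 and 0.39), Nat8f4 (0.14 and 0.36) and Nat8l (0.03 and -0.14) did not pass. Nat8 and Nat8f5 had 1 probe each, and signal shared between these near-identical genes was not tested. The next in size were Phlda2, an imprinted growth regulator (2.68 and 3.10, 7.41-fold), the lipid phosphodiesterase Gdpd3 (2.24 and 2.98, 6.12-fold) and Npb, which encodes the peptide neuropeptide B (2.78 and 2.17, 5.56-fold). Slc17a8, a vesicular glutamate transporter, rose 4.49-fold (2.10 and 2.23), whereas its dimmer second probe had 0.63 and 0.60. Further down the 20 largest rises, Neu3, a sialidase that trims gangliosides, rose by 1.83 (1.90 and 1.77; SE 0.08, adjusted p = 0.00255). Colec10, a collectin that binds sugars on microbes, rose by 1.82 (1.72 and 1.93), the channel-like Tmc7 by 1.79 (1.64 and 1.94) and Pnpla3, a lipid droplet acyl hydrolase, by 1.73 (1.81 and 1.65). Cyp26b1, which clears retinoic acid, rose by 1.68, with arrays further apart (2.28 and 1.09; adjusted p = 0.0427), and the linker histone H1f3 by 1.65 (1.38 and 1.91). With the mean of all kept probes Tmc7 was 0.64 and H1f3 0.90, both still past the threshold.

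Among enzymes that hydrolyse or conjugate foreign compounds, rises were found in carboxylesterases and glutathione transferases. Of 13 carboxylesterases, which split ester drugs and lipids, 8 rose and 0 fell, with a median of 0.85; 5 rose without replicate 1 and 2 without replicate 2. Ces1e (2.18 and 2.16), Ces2b (1.51 and 2.33), Ces2c (1.43 and 2.28) and Ces1g (1.01 and 1.51) were at least 2-fold higher on both arrays. All 6 measured members of the Ces2 group rose, Ces2g by as little as 0.37, whereas Ces1c (1.16 and -0.40), Ces1d (0.99 and 0.40), Ces1f (0.40 and 0.01) and Ces3b (0.42 and -0.69) did not pass. Of 19 glutathione transferases 7 rose and 1 fell (median 0.27; 3 rose without replicate 1 and 1 without replicate 2). The 7 were of the alpha and mu classes: Gsta2 had 1.27 and 1.59 and rose by 1.43 (SE 0.23, adjusted p = 0.0222), Gstm1 had 1.26 and 1.12, Gsta1 1.05 and 1.19, Gsta3 1.45 and 0.74, Gstm2 1.04 and 1.08, Gstm3 0.91 and 1.07 and Gsta4 0.41 and 0.40. Gsta3 did not pass with the mean of its probes (1.04, adjusted p = 0.0566). The theta-class members Gstt1 (-0.08 and 0.03) and Gstt2 (-0.08 and 0.08) did not pass, and the microsomal Mgst2 fell (-0.42 and -0.62). Mu-class and Ces2 members are close copies of each other, so their probes may share signal, which was not tested.

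**Figure D2:**
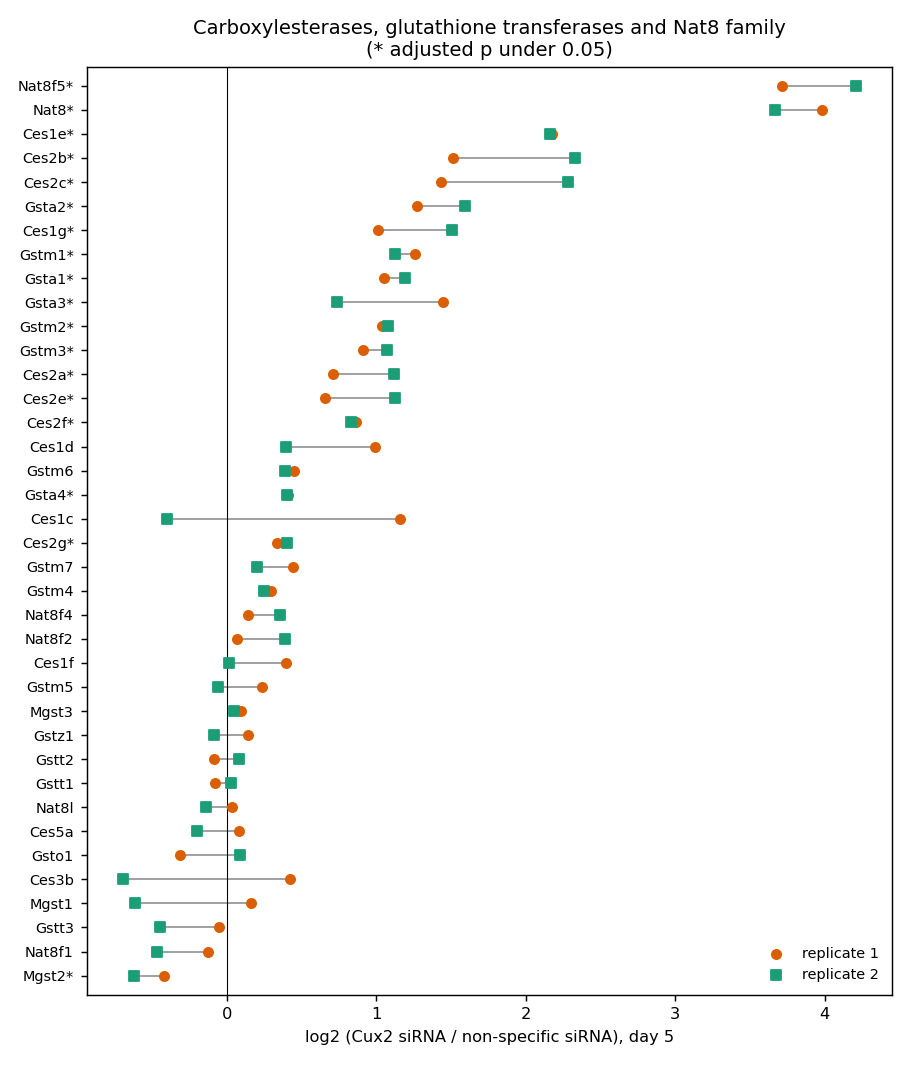
Log2 ratios (horizontal axis) of the measured carboxylesterases, glutathione transferases and Nat8 family members (vertical axis, ordered by mean); circles are replicate 1, squares replicate 2 and an asterisk marks an adjusted p under 0.05. Nat8 and Nat8f5 lie apart at the right, and Ces1c and Ces3b have their arrays on opposite sides of 0.

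Among targets and partners of the xenobiotic receptors CAR and PXR, 6 of 21 rose and 1 fell (median 0.34). Without replicate 1 the number that rose was 1 and without replicate 2 it was 0. Nr1i3, which encodes CAR, rose (0.45 and 0.99), as did the epoxide hydrolase Ephx1 (0.64 and 1.24), the haem synthesis enzyme Alas1 (0.59 and 0.86) and Por, the electron donor of P450 enzymes (0.55 and 0.61). The classic CAR target Cyp2b10 (0.22 and 0.32), the PXR target Cyp3a11 (0.28 and -0.54) and Nr1i2, which encodes PXR (0.24 and 0.45), did not pass. Of 17 other Cyp2 genes 3 rose, Cyp2c23 (1.27 and 2.42), Cyp2c55 (1.75 and 1.39) and Cyp2c54 (0.69 and 1.07), and Cyp2g1 fell (-1.13 and -1.06); the abundant Cyp2e1 (0.42 and 0.10) and Cyp2f2 (0.48 and 0.01) did not pass (1 rose and 0 fell without replicate 1, and 0 rose and 0 fell without replicate 2). Of 21 sulfotransferases and aldehyde enzymes 2 rose and 1 fell (1 rose and 1 fell without replicate 1, and 0 rose and 0 fell without replicate 2). The sulfotransferase Sult1b1 rose by 1.45 (1.23 and 1.67) and Sult5a1 fell by 1.66 (-1.44 and -1.87). Of 13 glucuronidation genes 1 rose, Ugt1a9 (0.44 and 0.57) (0 when either array was left out), and none fell. Oxidative stress genes of the NRF2 set gave 0 rises and 2 falls in 19, the falls being Txn1 (-0.42 and -0.53) and Gsr (-0.56 and -0.32), with 0 left when either array was left out. Of 22 transporters 4 rose (18.2%) and 3 fell (13.6%; 1 rose and 1 fell without replicate 1, and 0 rose and 0 fell without replicate 2): the bile salt pump Abcb11 (-1.09 and -0.95) and the conjugate pump Abcc2 (-0.82 and -0.75) fell and the organic cation carrier Slc22a3 rose (0.82 and 1.39).

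Genes induced by interferon, the cytokines that put cells on guard against viruses through STAT factors and IRF9, gave many of the largest falls among genes that passed. Of 33 effectors 32 fell and none rose, beside 9.43% of all genes, and all 33 were lower on both arrays; the median was -1.61. Without replicate 1 28 fell, and without replicate 2 17. Ifit1, which binds viral RNA caps, had -4.30 and -4.74, with signals of 1532 and 1741 in the treated pools against 30083 and 46582 in the control pools. Ifi44, an interferon-induced gene, followed with -4.35 and -3.77. Oasl2, an oligoadenylate synthetase-like protein, had -4.04 and -3.26 and fell 12.6-fold, a mean of -3.65 with SE 0.24 and adjusted p = 0.00494. Rsad2 (viperin), an enzyme that makes a chain-terminating nucleotide, fell by 3.53 (-3.35 and -3.72), and its genomic neighbour Cmpk2, a nucleotide kinase, by 2.57 (-1.91 and -3.23). The ubiquitin-like modifier Isg15 (-2.98 and -3.15) and Usp18, which removes it (-2.84 and -3.23), fell alike. At the lower end stood the RNA editor Adar (-0.80 and -1.11), Oas3 (-0.51 and -0.73) and the membrane protein Ifitm1 (-0.42 and -0.68). The exception, Oas1g, was not well above background in either treated pool.

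The interferon-inducible GTPases, which attack the vacuoles of intracellular microbes, had a median of -3.42. All 15 fell and all 15 were at least 2-fold lower on both arrays; 12 passed without replicate 1 and 5 without replicate 2. Gbp3 had -4.17 and -4.16 and fell 17.9-fold, a mean of -4.16 with SE 0.09 and adjusted p = 0.00181, the tightest pair of the group. Tgtp1 (-4.02 and -4.89), Gbp6 (-3.66 and -4.69), Gbp8 (-2.94 and -5.28) and Igtp (-3.09 and -4.64) stood with it among the 20 largest falls. Gbp2 (-3.37 and -3.85), Gbp7 (-3.15 and -3.68), Gbp4 (-3.12 and -4.31) and Gbp9 (-2.98 and -3.63) fell by similar amounts. Of the immunity-related class, Iigp1 (-2.08 and -4.19), Ifi47 (-2.46 and -3.48), Irgm2 (-2.30 and -3.20) and Irgm1 (-1.89 and -3.08) fell, and the giant GTPase Gvin1 fell by the least (-2.11 and -2.09). Replicate 2 gave the lower value for most of them. The summed signal of the 15 was 110300 and 75756 units in the treated pools and 709980 and 1326900 in the control pools. Gbp and Irg genes come in close copies, so shared signal between their probes was not tested.

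The 250 bases before RefSeq start sites (table of build GRCm38.p6) were searched on both strands for the interferon-stimulated response element core. Its letters are GAAA, any 2 bases and GAAA. It stood in 8 of 9 GTPase genes whose promoters were searched (88.9%) and in 10 of 23 effectors (43.5%). Of tested genes 397 of 11246 held it (3.53%). Both lists were drawn from general knowledge of such genes, so their shares describe the lists and do not follow from the arrays. Among genes at least 2-fold lower on both arrays it stood in 39 of 252 (15.5%), and among those at least 2-fold higher in 3 of 64 (4.69%). The stretches below, read 5′ to 3′ along the gene's strand, show it in capitals, on either strand, with overlapping copies in Isg15 and Gbp3; in Tgtp1, Igtp and Irgm2 the capitals also mark a STAT site, TTCNNNGAA.
Ifit1 (chr19:34640773-34640825, plus strand): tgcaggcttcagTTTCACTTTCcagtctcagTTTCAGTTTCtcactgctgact
Isg15 (chr4:156200863-156200908, minus strand): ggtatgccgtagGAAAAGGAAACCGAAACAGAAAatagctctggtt
Gbp3 (chr3:142559987-142560026, plus strand): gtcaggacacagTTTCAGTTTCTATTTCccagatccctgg
Tgtp1 (chr11:48992302-48992346, minus strand): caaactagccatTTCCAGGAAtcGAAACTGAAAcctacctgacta
Igtp (chr11:58199499-58199543, plus strand): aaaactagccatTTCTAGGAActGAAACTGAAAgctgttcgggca
Irgm2 (chr11:58214890-58214934, plus strand): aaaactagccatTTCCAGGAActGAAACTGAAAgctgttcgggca
The Igtp and Irgm2 stretches, from neighbouring genes, are identical at 44 of 45 bases. A match describes the letters and not binding. The core ATCGAT bound by cut and HNF6 proteins stood in 0 of 64 genes at least 2-fold higher on both arrays, in 3 of 252 at least 2-fold lower and in 0.791% of tested genes.

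The sensors and signal carriers upstream of these genes fell in smaller numbers. Of 19 sensors of microbial molecules, most of them for nucleic acids, 11 fell and none rose (median -0.55; 5 without replicate 1 and 4 without replicate 2). The DNA sensor Ifi204 fell by 2.08 (-1.91 and -2.26), the RNA helicases Dhx58 (-1.89 and -1.63), Ifih1 (-1.53 and -0.87) and Ddx58 (-0.84 and -0.90) fell, and so did Cgas (-0.57 and -1.32) and the bacterial lipoprotein receptor Tlr2 (-0.96 and -1.08); Cgas did not pass with the mean of its probes (-0.64, adjusted p = 0.0536). The adaptors Mavs (-0.11 and -0.48), Myd88 (0.05 and -0.29) and Ticam1 (0.03 and 0.40) did not pass. Of 23 genes of interferon signalling 7 fell. Irf7, which drives interferon alpha genes, had -2.45 and -2.30 and fell by 2.38 (SE 0.07, adjusted p = 0.00181). The receptor chains Ifnar2 (-0.78 and -0.71), Ifnar1 (-0.35 and -0.32) and Ifngr2 (-0.51 and -0.31) fell by less than 2-fold, and 3 of the 23 fell without replicate 1 and 2 without replicate 2. Stat2 (-0.17 and -0.70) did not pass, nor did Irf9, whose arrays disagreed (-1.47 and 0.72). The interferon genes Ifng (-0.42 and -0.15) and Ifna2 (-0.02 and 0.07) did not pass.

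Antigen presentation by MHC class I, which shows cell peptides to cytotoxic T cells, fell in 16 of 21 genes (median -0.93; 12 without replicate 1, 3 without replicate 2). The peptide transporter Tap1 had -1.99 and -2.72 and fell by 2.36 (SE 0.22, adjusted p = 0.00833). The 3 immunoproteasome subunits Psmb9 (-1.83 and -2.35), Psmb8 (-1.74 and -1.64) and Psmb10 (-1.15 and -1.39) fell, as did the proteasome activator genes Psme1 (-0.71 and -0.80) and Psme2 (-0.84 and -1.08). Of 30 subunits of the constitutive proteasome 3 fell and none rose, with a median of -0.14 and 0 falls when either array was left out; the subunits that Psmb8, Psmb9 and Psmb10 replace, Psmb5 (-0.03 and -0.10), Psmb6 (-0.14 and -0.16) and Psmb7 (-0.29 and -0.24), did not pass. The light chain B2m did not pass (-0.03 and -0.96). Of 12 MHC class II genes 5 fell, including H2-DMa (-1.28 and -1.90), the invariant chain Cd74 (-0.71 and -1.01) and H2-Aa (-0.43 and -1.19); without replicate 2 0 passed and without replicate 1 3.

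Acute phase genes, which hepatocytes switch on under IL-6 and IL-1 in inflammation, fell in 18 of 34 cases with 1 rise, and 15 were at least 2-fold lower on both arrays (median -1.04; 10 fell without replicate 1 and 5 without replicate 2). The serum amyloid Saa2 had -2.90 and -4.03 and fell by 3.46 (SE 0.39, adjusted p = 0.0111). Saa1 (-3.55 and -5.06), Saa3 (-3.03 and -4.49) and Lcn2, an iron-trapping lipocalin (-3.61 and -4.43), fell further. The drug- and lipid-binding orosomucoids Orm2 (-3.07 and -3.60) and Orm1 (-2.59 and -3.34) and the metal-binding metallothioneins Mt2 (-3.19 and -3.11) and Mt1 (-3.24 and -2.57) fell too. The haem scavenger Hpx (-1.94 and -3.18), the haemoglobin scavenger Hp (-1.62 and -2.58) and the pentraxin Apcs (-1.35 and -1.65) fell by less. The fibrinogen chains Fga (-0.70 and -1.54), Fgb (-0.31 and -1.43) and Fgg (-0.06 and -1.45) were lower on both arrays without passing, and Crp (-0.07 and 0.50) and the iron hormone Hamp (1.27 and 0.37) did not pass. Itih2, a hyaluronan-binding chain, rose (0.32 and 0.29). The STAT site TTCNNNGAA lay upstream of 8 of 26 acute phase genes (30.8%) beside 7.58% of tested genes. Among genes named here it matched Apcs and Serpina3f (mean -3.37), which fell, and Fga, Fgb and Hamp, which did not pass. Not all matched genes of the list are named here. No match was found for Saa1, Saa2, Saa3, Lcn2, Orm1, Orm2, Mt1 or Mt2, as far as their promoters were searched. Of all genes 9.43% fell and 7.38% rose. Complement and clotting genes gave 8 falls and 4 rises in 38: the C1 inhibitor Serping1 fell by 1.38 (-1.40 and -1.36) and C9, which forms the membrane pore, rose (0.51 and 0.58), whereas C3 (-0.09 and -1.64) did not pass (0 rose and 2 fell without replicate 1, and 0 rose and 0 fell without replicate 2).

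Among cytokines and their targets, 10 of 21 chemokines fell and 1 rose (median -0.61; 8 fell without replicate 1 and 4 without replicate 2). Cxcl9, a T cell attractant, had -3.79 and -3.54 and fell by 3.67 (SE 0.11, adjusted p = 0.00181). Cxcl10, which binds the same receptor, fell by 3.81 (-3.20 and -4.43). The monocyte attractants Ccl12 (-2.37 and -3.02), Ccl2 (-2.06 and -2.48), Ccl7 (-2.12 and -2.33) and Ccl8 (-2.55 and -1.78) fell. The neutrophil attractants Cxcl1 (0.14 and -0.14) and Cxcl2 (0.01 and 0.16) did not pass. Cxcl2 read only 76.9 to 85.7 units on day 5 and Cxcl1 had an SE of 0.34, so a change in either could be missed. Of 27 genes of the IL-6, IL-1 and NF-kappa-B set 15 fell and none rose, among them the IL-1 antagonist Il1rn (-2.01 and -1.89), the IL-18 antagonist Il18bp (-2.06 and -1.78) and the adhesion molecule Vcam1 (-1.34 and -2.0). Il6 (-0.60 and -0.94), Il1b (-0.80 and -0.89) and Tnf (-0.46 and -0.43) fell by less, and 5 of the 27 fell without replicate 1 and 2 without replicate 2.

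Markers of blood and immune cells moved beside these groups. Of 22 Kupffer cell (liver macrophage) markers 13 fell and none rose (median -0.69; 7 without replicate 1, 0 without replicate 2). Their summed signal was 166890 and 120680 units in the treated pools against 233600 and 223970 in the control pools. The scavenger receptor Marco (-2.21 and -3.61) fell the most, followed by the Fc receptor Fcgr1 (-1.35 and -2.44), the actin-binding Aif1 (-1.35 and -1.46) and the Fc receptor Fcgr4 (-1.12 and -1.55), and the Kupffer cell lectin Clec4f by less (-0.37 and -0.42). Adgre1 (-0.32 and -0.83), Csf1r (-0.07 and -0.67) and Vsig4 (-0.24 and 0.00), which define resident macrophages, did not pass. Of 15 neutrophil markers 6 fell, led by the calgranulins S100a9 (-2.82 and -1.85) and S100a8 (-2.65 and -1.85). The granule genes Ltf (-0.17 and -0.20), Ngp (-0.10 and -0.18) and Camp (0.14 and -0.02) did not pass. These granule genes read 62.9 to 109.7 units on day 5, not far above the offset of 50, so a change in them could be missed. The summed signal of the 15 was 6242 and 6657 against 21261 and 17492 units. Without S100a8 and S100a9 it was 3879 and 3368 against 5110.5 and 5660.4. Of 20 markers of natural killer, T and B cells 7 fell: the granzymes Gzma (-1.06 and -1.41) and Gzmb (-1.33 and -1.09), the natural killer receptors Klrk1 (-0.73 and -0.71) and Ncr1 (-0.54 and -0.54), Nkg7, Ptprc and Coro1a. The T cell genes Cd3e (-0.08 and -0.04) and Cd4 (0.01 and -0.02) and the B cell gene Cd79a (0.01 and 0.17) did not pass. Without replicate 1, 1 neutrophil and 2 lymphoid markers fell, and without replicate 2 0 and 0. Their summed signal was 7595 and 7554 against 11202 and 11901 units. Fewer cells of a type and less RNA per cell cannot be told apart in such bulk tissue, and the part of these cells in the interferon, antigen presentation, chemokine and acute phase values was not tested.

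Genes of cell division were lower together. DNA replication fell in 21 of 26 genes and mitosis in 26 of 31, none rose, and every member of both lists was lower on both arrays (medians -0.86 and -0.92). Without replicate 1 the falls numbered 17 and 16, and without replicate 2 4 and 6. Uhrf1, which keeps DNA methylation through replication, had -2.03 and -2.74 and fell by 2.38 (SE 0.18, adjusted p = 0.00597). All 7 measured Mcm genes fell, from Mcm6 (-1.55 and -1.88) to Mcm7 (-0.45 and -0.82), with the licensing factor Cdt1 (-1.53 and -1.92) and the nucleotide reductase Rrm2 (-1.39 and -1.61). Tyms (-0.08 and -0.25) and Tk1 (-0.02 and -0.19), of nucleotide supply, did not pass. In mitosis Prc1 (-1.48 and -1.72), a spindle midzone protein, Cenpe (-1.33 and -1.53), a kinetochore motor, Bub1 (-1.30 and -1.56), Ccna2 (-1.32 and -1.47) and Cdk1 (-1.14 and -1.15) fell. Summed signals of the 31 mitosis genes were 9384 and 9685 units in the treated pools against 17551 and 18328 in the control pools. With the scanner's processed signals the mitosis median was -1.51, and without background subtraction -0.45.

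Among 30 cyclin, G1 and growth genes 6 fell, including cyclin E1 (Ccne1, -0.79 and -0.92) and Gadd45g (-1.24 and -1.80), with Ccne1 at -0.48 as the mean of its probes, and 2 rose, Zmat3 (0.74 and 0.90) and Gdf15 (0.43 and 0.72). Cdkn1a (0.17 and 1.24) and cyclin D1 (Ccnd1, -0.20 and 0.62) did not pass; 1 rose and 2 fell without replicate 1, and 0 rose and 0 fell without replicate 2. The cell cycle homology region TTTGAA, searched as above, lay upstream of 10 of 24 mitosis genes (41.7%) and 2 of 23 replication genes (8.70%), beside 14.2% of tested genes. It is shown in capitals for Prc1 and the ubiquitin-conjugating enzyme gene Ube2c, which fell with it (-1.22 and -1.34).
Prc1 (chr7:80294434-80294463, plus strand): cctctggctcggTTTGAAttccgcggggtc
Ube2c (chr2:164769888-164769917, plus strand): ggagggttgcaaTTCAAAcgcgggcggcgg

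Heat shock genes, which help proteins fold under the factor HSF1, rose in 12 of 27 cases with 1 fall, beside 7.38% and 9.43% of all genes (median 0.50; 7 rose without replicate 1 and 2 without replicate 2). Hsp90aa1, the inducible form of HSP90, had 1.56 and 1.65 and rose by 1.61 (SE 0.12, adjusted p = 0.00613, 3.05-fold). The nucleotide exchange factor Hsph1 (1.38 and 1.76), the cytosolic chaperone Hspa8 (1.48 and 1.14), and the co-chaperones Chordc1 (1.00 and 1.26), Fkbp4 (0.87 and 0.87), Stip1 (0.83 and 0.79), Bag3 (0.76 and 0.90) and Dnajb1 (0.78 and 0.81) rose with it. The constitutive Hsp90ab1 (0.33 and -0.02), the most inducible members Hspa1a (0.62 and -0.28) and Hspa1b (0.63 and 0.02), and Hsf1 itself (0.05 and -0.03) did not pass, and the lens and muscle chaperone Cryab fell (-0.47 and -0.49). The heat shock element, GAA, TTC and GAA each spaced by 2 bases (both strands), lay upstream of 2 of 20 heat shock genes with a promoter (10%), Hspe1 and its divergent neighbour Hspd1, which share the stretch, beside 0.471% of tested genes. Of the pair, Hspe1 rose (0.58 and 0.41) and Hspd1 did not pass (0.27 and -0.01). The shared stretch holds overlapping matches in capitals.
Hspe1 (chr1:55088047-55088088, plus strand): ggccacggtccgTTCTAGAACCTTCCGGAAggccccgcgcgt

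Chaperones of the endoplasmic reticulum divided: 3 of 21 rose and 4 fell (0 rose and 1 fell without replicate 1, and 0 rose and 1 fell without replicate 2). Beside these counts, 7.38% of all genes rose and 9.43% fell. Manf (0.54 and 0.77), Creld2 (0.46 and 0.68) and Hspa5, which encodes BiP (0.51 and 0.62), rose. Derl3, a channel component of protein disposal, had -1.95 and -2.69 and fell by 2.32 (SE 0.18, adjusted p = 0.00655), and the folding genes P4hb (-0.71 and -0.73), Pdia6 (-0.49 and -1.14) and Dnajc3 (-0.81 and -0.48) fell by less. The stress element of this compartment, CCAAT, any 9 bases and CCACG (both strands), stood upstream of 9 of 19 such genes (47.4%) and of 0.178% of tested genes. It is present in capitals both in a gene that rose, Hspa5, and in one that fell, Derl3 (on the other strand).
Hspa5 (chr2:34772013-34772055, plus strand): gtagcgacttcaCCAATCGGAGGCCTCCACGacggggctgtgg
Derl3 (chr10:75893230-75893272, plus strand): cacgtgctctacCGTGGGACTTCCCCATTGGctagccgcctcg
Genes of the amino acid response driven by ATF4 fell at the metabolic end: Trib3, a pseudokinase, had -2.32 and -2.46 and fell by 2.39 (SE 0.09, adjusted p = 0.00198; -1.55 as the mean of its probes), followed by the serine synthesis enzymes Psat1 (-1.67 and -2.42) and Phgdh (-0.80 and -1.15), the glutathione-degrading Chac1 (-2.57 and -1.59) and asparagine synthetase Asns (-0.89 and -1.52). Atf4 itself rose (0.27 and 0.42), as did the tRNA synthetases Iars (0.60 and 0.52) and Eprs (0.28 and 0.35), the last not with the mean of its probes (0.25, adjusted p = 0.155). In all 8 of 27 fell and 3 rose (0 rose and 3 fell without replicate 1, and 0 rose and 1 fell without replicate 2).

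Clock genes moved in opposed arms. The clock runs on CLOCK and BMAL1 (Arntl), which switch on the Per, Cry, Rev-erb (Nr1d1, Nr1d2) and Dbp genes, while REV-ERB represses Arntl, Clock, Cry1 and Nfil3. Of 20 genes 7 rose and 3 fell; 3 rose and 3 fell without replicate 1, and 2 rose and 3 fell without replicate 2. Nr1d1 had -1.55 and -1.83 and fell by 1.69 (SE 0.10, adjusted p = 0.00423). Dbp had -1.41 and -1.61 and fell by 1.51 (SE 0.09, adjusted p = 0.00423), and Nr1d2 fell by 1.1 (-1.25 and -0.96). Per2 had 1.45 and 1.87 and rose by 1.66 (SE 0.13, adjusted p = 0.00662). Arntl rose by 1.63 (2.07 and 1.18), Cry1 by 1.36 (1.41 and 1.32), Clock by 0.84 (0.93 and 0.75) and Nfil3 by 0.78 (0.91 and 0.65). Per1 (-0.11 and -0.16), Per3 (-0.33 and -0.05) and Cry2 (-0.13 and 0.03) did not pass, so the Per and Cry genes were split. With the mean of their probes Nr1d1 was -0.69 and Per2 0.81, both past the threshold. The E-box CACGTG, the letters that CLOCK and BMAL1 bind, lay upstream of 4 of 15 clock genes (26.7%) and of 9.15% of tested genes. Of the 4, Cry1 rose, and Ciart, Per1 and Tef did not pass. The hour at which each group was killed is not given in the labels, and its part in these values was not tested.

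**Figure D3:**
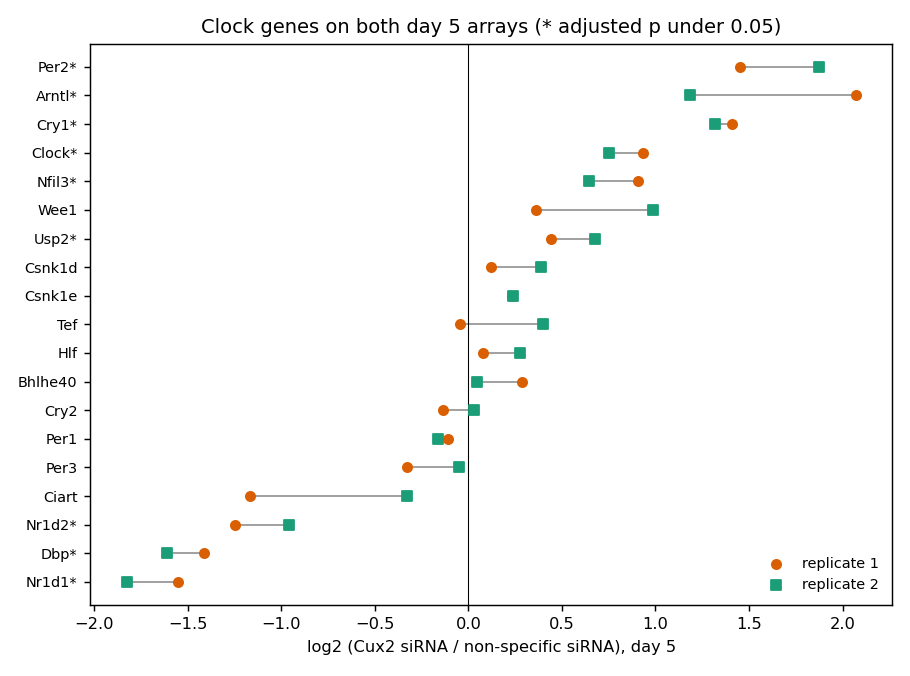
Log2 ratios (horizontal axis) of clock genes (vertical axis, ordered by mean) on replicate 1 (circles) and replicate 2 (squares); an asterisk marks an adjusted p under 0.05. Nr1d1, Dbp and Nr1d2 lie near -1 or lower and Per2, Arntl and Cry1 above 1 on both arrays.

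In the metabolic lists the shares that rose ran from 0% (bile acid) to 26.1% (glucose), beside 7.38% of all genes, and the shares that fell from 4.35% (cholesterol) to 22.2% (lipoprotein), beside 9.43%. In fat synthesis 7 of 30 rose (23.3%) and 3 fell (10%): the elongase Elovl6 had 1.29 and 1.77 and rose by 1.53 (SE 0.20, adjusted p = 0.0154), fatty acid synthase Fasn (0.68 and 0.99), Srebf1 (0.35 and 0.56) and Mogat1 (0.43 and 1.05) rose, and the phosphatidate phosphatase Lpin1 (-1.65 and -1.57) and the triglyceride lipase Pnpla2 (-0.89 and -0.92) fell. Of the 30, 2 rose and 0 fell without replicate 1, and 0 rose and 0 fell without replicate 2. The desaturase Scd1 was on opposite sides of 0 (1.05 and -0.81). In fatty acid oxidation the shares lay near those of all genes: 4 of 35 rose (11.4%), led by Acot1 (2.08 and 2.43) and the pyruvate dehydrogenase kinase Pdk4 (0.71 and 1.19), and 3 fell (8.57%), Ppargc1a (-0.56 and -0.90), Acot9 (-0.49 and -0.59) and the droplet coat protein Plin2 (-0.48 and -0.40); 1 rose and 0 fell without replicate 1, and 1 rose and 1 fell without replicate 2. The PPAR-alpha targets Vnn1 (-2.96 and -0.43) and Fgf21 (-1.82 and -0.37) were lower on both arrays without passing. In cholesterol synthesis 3 of 23 rose (13%), Pmvk (0.71 and 0.60) and Lss (0.65 and 0.37; 0.46 with the mean of its probes, adjusted p = 0.0711) among them, and Scap, the escort of SREBP factors, fell (-0.48 and -0.31); 0 of these passed when either array was left out. Of lipoprotein genes 4 of 18 fell, with Apof, a lipid transfer inhibitor, at -1.14 and -1.91, and the phospholipid transfer protein Pltp rose (0.58 and 0.59); 0 rose and 1 fell without replicate 1, and 0 rose and 1 fell without replicate 2.

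In glucose metabolism 6 of 23 rose and 3 fell. The bifunctional Pfkfb1 (0.76 and 1.05), glucose-6-phosphatase, G6pc (0.56 and 1.20), and the glycogen-targeting subunits Ppp1r3b (1.39 and 1.15) and Ppp1r3c (1.28 and 0.82) rose, and the inducible Pfkfb3 fell (-1.05 and -2.20; -0.87 as the mean of its probes); 3 rose and 2 fell without replicate 1, and 2 rose and 1 fell without replicate 2. Amino acid breakdown fell at homogentisate dioxygenase, Hgd (-1.17 and -1.59), histidase, Hal (-1.07 and -1.38), Agxt (-0.78 and -1.13) and Cbs (-0.33 and -0.65); of 32 genes 5 fell (15.6%) and 2 rose (6.25%), Asl (0.44 and 0.36) and Prodh (0.31 and 0.56); 0 rose and 3 fell without replicate 1, and 0 rose and 1 fell without replicate 2. Hal and the serine dehydratase Sds (-0.90 and -1.04), both periportal, were among the 7 of 21 zonation genes that fell, with Lgr5 (-0.68 and -0.59), a Wnt co-receptor of the pericentral zone; Slc1a2 (0.33 and 0.44) and Sox9 (0.56 and 0.79; 0.34 as the mean of its probes, adjusted p = 0.071) rose with Slc22a3 (0 rose and 2 fell without replicate 1, and 0 rose and 0 fell without replicate 2). In bile acid synthesis 2 of 18 fell, the FGF co-receptor Klb (-1.20 and -1.13) and Hsd3b7 (-0.66 and -0.81), and none rose; the 12-alpha-hydroxylase Cyp8b1 did not pass, with arrays far apart (-1.93 and -0.62); 1 of the 18 fell without replicate 1 and 1 without replicate 2.

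Collagen genes leaned to falls, with exceptions. Of 16 collagens and collagen enzymes 9 fell and 2 rose (median -0.84; 7 fell without replicate 1 and 0 without replicate 2). Fibrillar Col1a1 had -1.09 and -2.14 and fell by 1.61 (SE 0.26, adjusted p = 0.0215), and Col3a1 (-1.05 and -1.69), Col1a2 (-0.89 and -1.29) and the basement membrane chains Col4a1 (-1.24 and -1.98) and Col4a2 (-1.04 and -1.34) fell too. Col3a1 was -0.74 as the mean of its probes. Col27a1 rose by 1.70 (1.65 and 1.75; SE 0.07, adjusted p = 0.00219). Of 22 markers of stellate cells and fibroblasts, the makers of liver collagen, 6 fell, led by Tagln (-1.17 and -1.46), Timp1 (-1.08 and -0.96) and Vim (-0.90 and -1.04), with a list median of -0.31 (Timp1 -1.58 as the mean of its probes), and 2 rose, Reln (0.85 and 0.79) and Colec10 (1 rose and 1 fell without replicate 1, and 0 rose and 0 fell without replicate 2). Their summed signal was 172100 and 172220 units in the treated pools and 149500 and 154050 in the control pools, and without Colec10 150550 and 151560 against 142950 and 148630; their part in the collagen values was not tested. Of 22 endothelial markers 3 fell, Cdh5 (-0.53 and -0.37), Plvap (-0.39 and -0.43) and Eng (-0.31 and -0.43), and 1 rose, Ehd3 (0.59 and 0.73); 0 passed when either array was left out, and the list's median of -0.04 was above 0 with the scanner's processed signals. Of 24 cytoskeleton genes 7 rose and 2 fell (2 rose and 0 fell without replicate 1, and 1 rose and 0 fell without replicate 2). The tubulin genes among the rises included Tuba1c at 0.94 and 1.52, Tubb4b at 1.07 and 1.09 and Tuba4a at 1.03 and 1.00, alongside the actin-binding Tmsb10 (1.69 and 1.15; 0.10 with the mean of its probes, which did not pass, adjusted p = 0.657), whereas its relative Tmsb4x fell (-0.64 and -1.36).

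**Figure D4:**
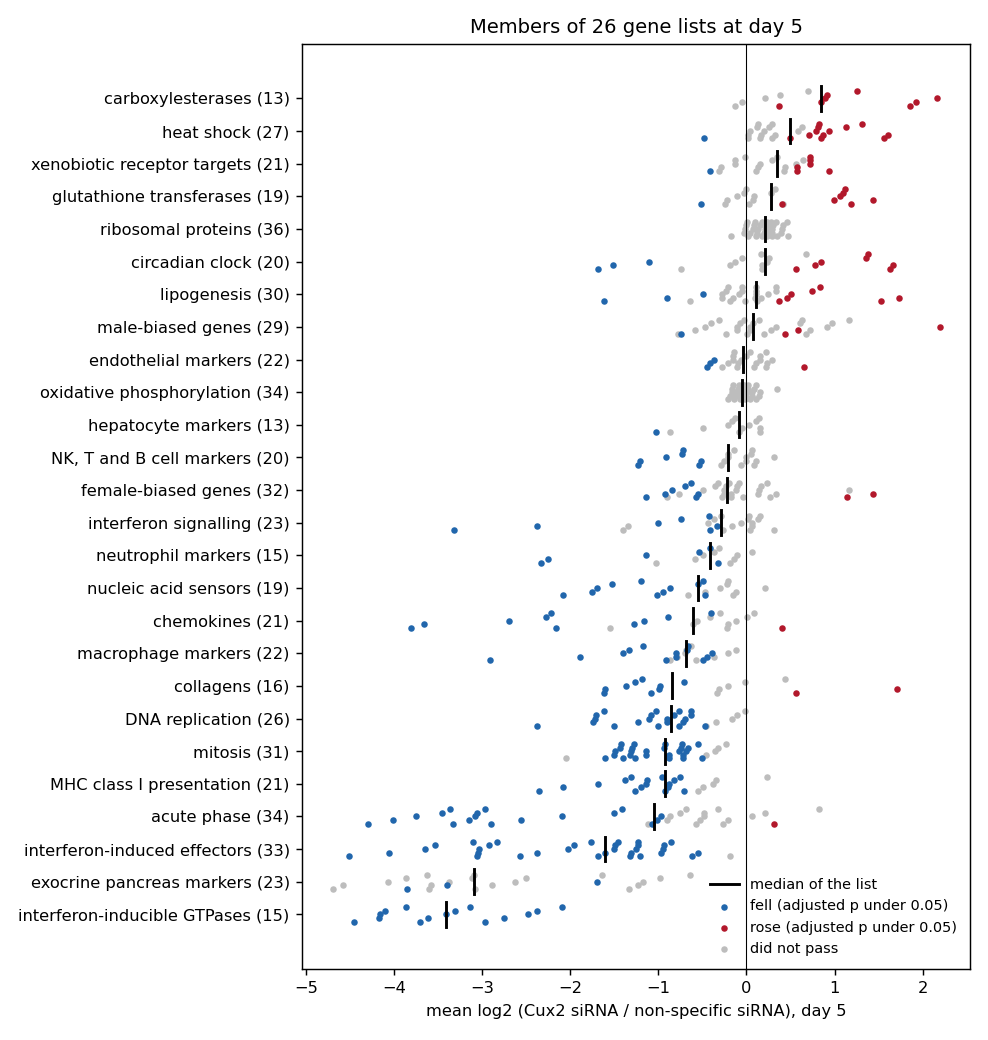
Mean day 5 log2 ratio (horizontal axis) of each measured member of 26 gene lists (vertical axis, ordered by median, with the number measured); red and blue points rose and fell at an adjusted p under 0.05, grey points did not pass and the black bar is the list's median. The interferon-inducible GTPases are all blue with a median of -3.42, and the pancreas markers lie as low but are mostly grey.

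Exocrine pancreas genes were low in the treated pools although the tissue is labelled as liver. All 23 measured were lower on both arrays and 18 were at least 2-fold lower on both (median -3.09), yet 3 passed (2 without replicate 1, 1 without replicate 2), Reg2 (-2.77 and -4.93), Reg3b and Reg3g. Pancreatic lipase, Pnlip, read 279 and 254 units in the treated pools and 3988 and 12032 in the control pools (-3.83 and -5.57; adjusted p = 0.0770). The trypsinogen Prss2 read 256 and 379.6 against 2249.7 and 6661. The control pool on replicate 2 was thus the highest reading and the one on replicate 1 lay between. Day 8, which shares the control pools and enters the spread, gave 0.50 and -4.98 for Pnlip, so its arrays lay on opposite sides of 0. Reg3b, an antibacterial lectin also made in inflamed tissue, was not well above background in either treated pool. It was at least 10.5-fold lower (adjusted p = 0.00181 in the limma fit). Such a bound divides the control level by the higher of the treated value and the lowest signal well above background. The defining genes Cela3b (-3.32 and -4.83), Cpa1 (-3.05 and -4.13) and Cpb1 (-3.34 and -4.40) had like values without passing. The summed signal of the 23 was 13701 and 15425 units against 39619 and 102070, and the part of these transcripts in other values was not tested. With replicate as a block 22 of the 23 passed.

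Some groups showed no calls at all. None of 36 ribosomal protein genes (median 0.21) and none of 34 genes of oxidative phosphorylation (median -0.05) passed in the limma fit, although 16.8% of all genes did. With replicate as a block, 13 ribosomal genes rose and 1 oxidative phosphorylation gene did. Ribosomal genes had a median of 0.41 on replicate 1 and 0.03 on replicate 2. Hepatocyte markers showed the same split, 0.35 and -0.62, for example Alb at 0.82 and -0.77 and Ahsg, the serum glycoprotein fetuin-A, at 0.88 and -0.66. Of 13 hepatocyte markers 1 fell, Apob (-1.25 and -0.81), the protein scaffold of liver lipoproteins. Their list median of -0.08 and that of the oxidative phosphorylation genes changed sign without background subtraction. The 251 brightest genes had medians of 0.28 and -0.30 on the 2 arrays, and in 127 of them the red channel was the higher on both arrays against 1 for green; 10.8% of them passed. In the next 251 genes the medians were 0.07 and -0.05 and 23.9% passed. In the brightest class most genes were thus on the side of the red dye on both arrays, and their mean of the 2 arrays lay near 0 with a wide error.

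**Figure D5:**
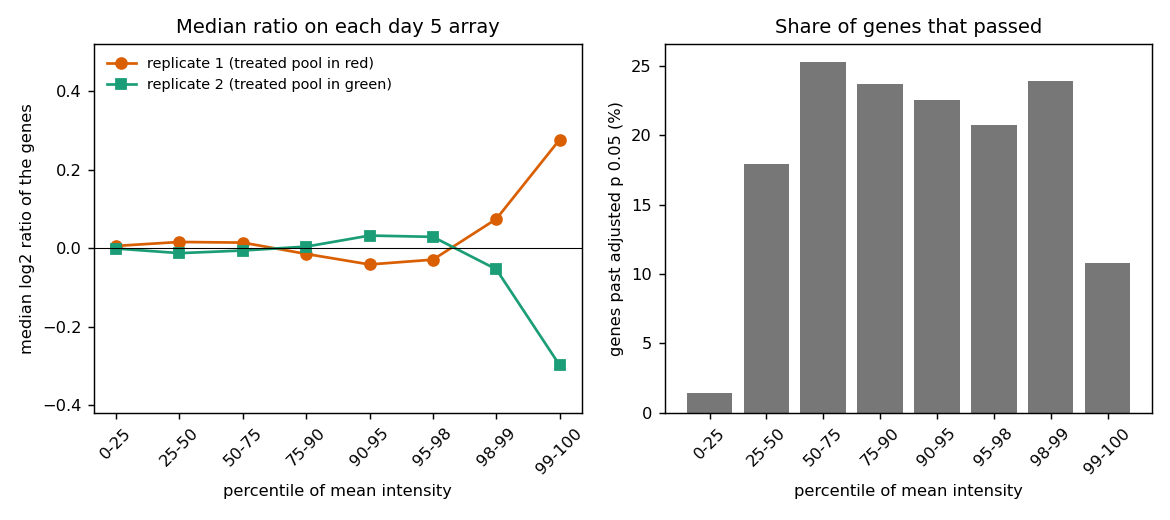
Left, median log2 ratio of the genes in each class of mean intensity (percentiles, horizontal axis) on replicate 1 and replicate 2; right, share of genes in each class that passed at an adjusted p under 0.05. The medians stay within 0.05 of 0 up to the 98th percentile and part to 0.28 and -0.30 in the brightest class; 1.45% of the dimmest genes passed.

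The arrays agreed in sign for 18185 genes (72.5%), and the SD of their difference was 0.30. The arrays lay more than 2-fold apart for 330 genes, 41 of which passed. Only 4 genes were at least 2-fold up on one array and 2-fold down on the other, and 3 of these had symbols: the renins Ren1 (1.95 and -1.24) and Ren2 (1.85 and -1.24), which are close copies of each other, and Raet1e, a ligand of the natural killer receptor Klrk1 (-1.69 and 1.28). Where a passed gene had several probes, all its probes had the same sign in 1052 of 1163 cases (90.5%), and in 153 of 159 (96.2%) at 2-fold or more.

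Against day 8 no gene passed. In the limma contrast of day 8 minus day 5, 0 of 25091 genes passed (0%) and 620 had an unadjusted p under 0.05; no alternative that was run gave a call. Differences were ranked among genes with a symbol that were at least 1.5-fold apart between the days, the same way, in both replicates. The widest upward at day 8 were in Pnlip (2.46), the pancreatic stone protein Reg1 (2.05), the mucosal defence gene Dmbt1 (1.92) and the primase subunit Prim2 (1.53). The widest downward were in Scd1 (-1.12), Nat8f5 (-0.99), the actin regulator Pfn2 (-0.95) and Elovl6 (-0.93). Nat8f5 had 2.60 and 3.34 at day 8, still above 0 on both arrays, and Scd1 lay on opposite sides of 0 at day 5. Both days share the control pools, and these differences are values without a call.

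Remaining lists gave few calls, to be set beside the 7.38% of all genes that rose and the 9.43% that fell. Of 25 iron and copper genes 3 rose, the importer Slc11a2 (0.47 and 0.60; 0.22 with the mean of its probes, adjusted p = 0.118), Blvrb (0.58 and 0.76) and the BMP target Id1 (0.61 and 1.12), and the exporter Slc40a1 fell (-0.53 and -0.36). Of 8 NADPH oxidase genes Nox4 rose and the phagocyte subunits Cyba (-0.67 and -0.90) and Rac2 (-0.65 and -0.96) fell. Of 23 peroxisome genes Pxmp4 rose (0.30 and 0.46) and the carnitine transferase Crot (-0.87 and -0.68) and Pex19 (-0.70 and -0.63) fell. Of 7 adipocyte markers Plin4 rose (0.62 and 0.62) and Adipoq fell (-0.34 and -0.54), as did Ucp1. Ucp1 was not well above background in either treated pool and was at least 1.34-fold lower (adjusted p = 0.0428 in the limma fit). Of 11 bile duct markers Sox9 rose and Cd24a fell (-0.43 and -0.56), and of 8 erythroid markers Alas2 rose. Without replicate 1, 3 NADPH oxidase genes and 1 adipocyte marker passed, without replicate 2, 1 NADPH oxidase gene did, and the other 4 lists named here had 0 calls in both cases.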

How the data were processed

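Liver RNA was compared on Agilent 44k mouse arrays, each carrying a Cux2 siRNA pool in one dye and a non-specific siRNA pool in the other. Per the file headers, the images were read with Agilent Feature Extraction 10.7.1.1, and the deposited scanner files give median spot and background intensity for 45018 features per channel. The authors' deposited table of log10 ratios equals the scanner's processed ratio within 1e-05 and served as an alternative; the scanner's p-value for each spot, also in the deposited files per the file headers, entered no test. The genome build of the array design is not used here. Backgrounds were corrected with normexp (offset 50) and each array was normalized by loess, with 1639 control spots at weight 0 and outlier spots left out (limma 3.58.1, R 4.3.3). Ratios were turned to Cux2 siRNA over non-specific siRNA by the dye labels.

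Spots of a probe were averaged, and probes with fewer than 2 of 8 readings well above background were dropped, leaving 31759 of 41174. Probes were named through accessions in the RefSeq table of GRCm38.p6, which matched 23374 probes (56.8%), and the brightest kept probe stood for its gene. The fit used all 4 arrays with a mean per day, 2 residual and 2.78 prior degrees of freedom, and p-values adjusted by Benjamini-Hochberg over 25091 genes. A gene passed at an adjusted p under 0.05. Genes not well above background in a group are given as "at least N-fold", from the brighter group's mean against the higher of the dim group's value and the lowest signal well above background. The members, gene lists and tests were chosen with earlier results of these data known.

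Genes to name were drawn by a rule, and not all of them are printed: Cux2, the 20 largest rises and 20 largest falls, up to 5 passed and 3 bright not passed members of each list, the genes with opposite arrays, the 4 widest day differences each way and the Nat8 family. The day differences were drawn from genes at least 1.5-fold apart between the days in both replicates. A further 139 list members, and the clock, receptor and stress genes singled out among them, were chosen after their values were seen. Alternatives were another normalization, no background subtraction, processed signals, other filters, the mean of probes, the replicate number as a block, day 5 alone and each array left out. The fit was tested on simulated data in which arrays varied independently. That setting cannot show errors from deviations that arrays share. Same-numbered arrays of the 2 days deviated together across genes (r = 0.50), and the number also marks the dye orientation. A few genes of the lists are counted but not reported here by name.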

Additional observations from a re-analysis of the deposited data

How the results depend on the processing

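The count of 4216 genes at day 5 was 5 with median centring in place of loess, 2010 with the scanner's processed signals and 1999 with the authors' log10 ratios, and it ranged from 246 to 3560 when 1 array was left out, lowest without day 5 replicate 2 and 915 without day 5 replicate 1. It lay between 2881 and 4390 with no background subtraction, other filters on dim probes, the mean of probes or day 5 alone. With the replicate number as a block it was 8238 (3832 rose and 4406 fell), all 4216 among them; with 2 pairs the numbers are not shown to pair the samples. Rises made up 43.9% of the calls, 31.8% without replicate 1, 25.2% without replicate 2 and 20% with median centring. Cux2 kept its direction throughout, from -2.09 with processed signals to -1.15 without background subtraction; with median centring it was -1.82 and did not pass (adjusted p = 0.129), and it lay between -1.91 and -1.70 when 1 array was left out. The contrast of day 8 minus day 5 had 0 calls under every setting that was run.

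Of 308 passed genes looked at by name 305 lost the call with median centring, 126 with processed signals, 115 without background subtraction, 159 without replicate 1 and 240 without replicate 2, and none turned. Where 1 day 5 array was left out none could turn, since every passed gene had the same sign on both. Raet1e, which did not pass, was -0.20 on both arrays together, 1.28 without day 5 replicate 1 and -1.69 without day 5 replicate 2. Of the dimmest 25% of genes 1.45% passed, beside 16.8% of all genes. The cause of these shifts was not tested, except that fewer arrays leave fewer degrees of freedom. Without 1 day 5 array the spread comes from the day 8 arrays alone.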
